A study of Mus musculus with 27 samples.

Results

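The stretch described here is 1000 kb of mouse chromosome 2, from 116080001 to 117080000 (build mm10), cut into 100 bins of 10 kb. Its members are all pairs of different bins with both ends inside, 4950 pairs, out of 16883852 bin pairs that carry a contact in at least 1 of the 6 contact matrices of the series. The members are defined by position and not by their contact values, but the window itself was chosen with earlier results of these data known. Each library listed a contact for 4868 to 4886 of the 4950 pairs, and 4845 pairs had a contact in all 6.

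The series studied testis of mice in which CRISPR-Cas9 had removed a boundary between topologically associating domains (TADs). Capture Hi-C, which ligates DNA ends lying close together in the nucleus and then enriches chosen regions with probes, was made from 3 wild-type libraries (genotype label Wild-type) and 3 libraries homozygous for the deletion (genotype label B396.BOS_hom_KO). Strain and age are not given in the labels, testis is a mixture of germ and somatic cells, and it could not be checked against marker genes because no expression values per sample were used. The authors' deposited table for genes near the deletion lists 6 genes, all on chromosome 4, and the labels name no edit of chromosome 2. Each matrix averages over the cells of the tissue, so a different mixture of cells and different contacts within cells cannot be told apart. Nothing in the labels says that the libraries of a genotype came from separate animals, and p-values then measure only the spread between these libraries, which may be technical.

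TADs are stretches of chromosome whose parts meet each other more often than they meet the next stretch. Many of their borders hold CTCF, a DNA-binding protein at which the loop-extruding cohesin complex halts, and a border shows in contact data as a line that few contacts cross. Gene deserts are long stretches with few or no protein-coding genes, and those beside developmental regulators often hold distant regulatory elements. Contacts fall with the distance between sites in any polymer, so a pair is informative only against other pairs at the same distance.

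The window is such a desert. The RefSeq table for GRCm38.p6 places 10 genes in it, of which 1 is protein-coding: Tmco5, at 116878693 to 116892506, which encodes a protein with transmembrane and coiled-coil domains known from developing sperm. The other members of the annotation are 5 long non-coding RNAs (lncRNAs), 3 pseudogenes and 1 small nucleolar RNA. To the left of Tmco5 the nearest protein-coding gene is Meis2, a homeobox transcription factor, 811 kb away and ending 12.5 kb outside the window. To the right it is Spred1, an inhibitor of Ras signalling, 229 kb away from Tmco5 and 41.1 kb beyond the window. Around Tmco5 lie 3 lncRNAs: Gm13990, on the left from 116803503 to 116878647, and Gm46758 and D330050G23Rik on the right, with D330050G23Rik from 116900152 to 116912791.

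By the side-matched measure described further on, few contacts for their length crossed the border inside Tmco5, at 116890000, and the upstream sequences of Tmco5 and of the lncRNAs that start on either side of it are shown for that reason. Each is the 250 bases before a transcription start, 5′ to 3′ along the strand of the gene, from the RefSeq promoter table for GRCm38.p6. Capitals mark matches to 2 patterns searched on both strands: CCCTC, from which CTCF takes its name, and GGNGGC, the right part of the CTCF core with its variable position open. The 2 patterns do not overlap in these sequences.
Gm13990 (chr2:116877172-116877421, minus strand): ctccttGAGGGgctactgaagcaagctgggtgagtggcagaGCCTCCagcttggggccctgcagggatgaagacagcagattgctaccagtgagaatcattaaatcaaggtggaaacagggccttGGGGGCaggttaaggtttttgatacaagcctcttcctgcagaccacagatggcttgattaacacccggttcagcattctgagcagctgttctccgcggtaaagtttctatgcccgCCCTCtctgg
Tmco5 (chr2:116878455-116878704, plus strand): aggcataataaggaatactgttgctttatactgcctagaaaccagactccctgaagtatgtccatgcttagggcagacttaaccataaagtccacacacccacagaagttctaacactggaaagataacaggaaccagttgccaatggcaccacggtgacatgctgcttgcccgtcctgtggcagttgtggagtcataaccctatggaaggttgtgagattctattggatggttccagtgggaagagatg
D330050G23Rik (chr2:116899902-116900151, plus strand): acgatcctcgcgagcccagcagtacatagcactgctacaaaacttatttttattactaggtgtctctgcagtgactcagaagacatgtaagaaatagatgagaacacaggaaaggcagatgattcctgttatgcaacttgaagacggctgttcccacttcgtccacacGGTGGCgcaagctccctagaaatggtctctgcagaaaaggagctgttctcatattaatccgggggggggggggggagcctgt

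Tmco5 held neither pattern in these 250 bases, and Gm13990 held each 2 times, 1 on either strand. Both are common: 60.5% of 32851 promoters held CCCTC and 55.8% held GGNGGC in a window of the same length. D330050G23Rik held GGNGGC 1 time, at 116900070 to 116900075, in the first bin to the right of the border at 116900000, 76 bases before its start. That match is not beside 116890000, the border for which the sequences are shown. GGNGGC was added after the sequences had been seen. A match is a description of letters, and CTCF binding was not analysed here. The listed start of Gm13990 lies inside the gene as annotated, so all 250 bases shown for it are within the gene.

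The 6 libraries held 5669898 to 7794641 contacts in all, and 5.26% to 5.67% of them joined different bins of the window. Window contacts numbered 337905, 369495 and 415104 for wild-type replicates 1 to 3 against 315935, 410277 and 404353 for homozygous replicates 1 to 3, with a median of 29 to 36 per bin pair. The probes enriched a longer region, 114820001 to 117500000 (268 bins), and the window took 26.0%, 26.4% and 26.5% of that region's contacts for wild type against 26.5%, 26.9% and 26.3% for homozygotes. The genotypes overlapped (difference 0.275 percentage points, exact permutation p 0.5, two-sided). With 3 against 3 libraries this test has 20 arrangements and cannot give a p below 0.1.

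Coverage along the window was uneven in the same places in every library. The median bin had 7798 contacts with other window bins (mean of 6 libraries), and the highest, at 116750001, had 1.59 times that. A sparse stretch ran from 116450001 to 116540000, left of the middle of the window, where all 9 bins except that at 116460001 lay under 50% of the median. Its poorest bin, at 116490001, had 39, 39 and 44 contacts (wild type) against 26, 42 and 57 (homozygous), 0.00528 of the median, and was left out of balanced matrices. The pseudogene Gm13991 lies in this stretch, in a bin with 0.155 of the median. Its bins at 116480001 and 116530001 had 0.186 and 0.322. Outside it, the bins under 50% of the median were 116150001 (0.222), 116270001 (0.352) and 117070001 (0.480). The ratio of homozygous to wild-type share per bin ran from 0.936 to 1.11 over 99 bins.

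**Figure D1:**
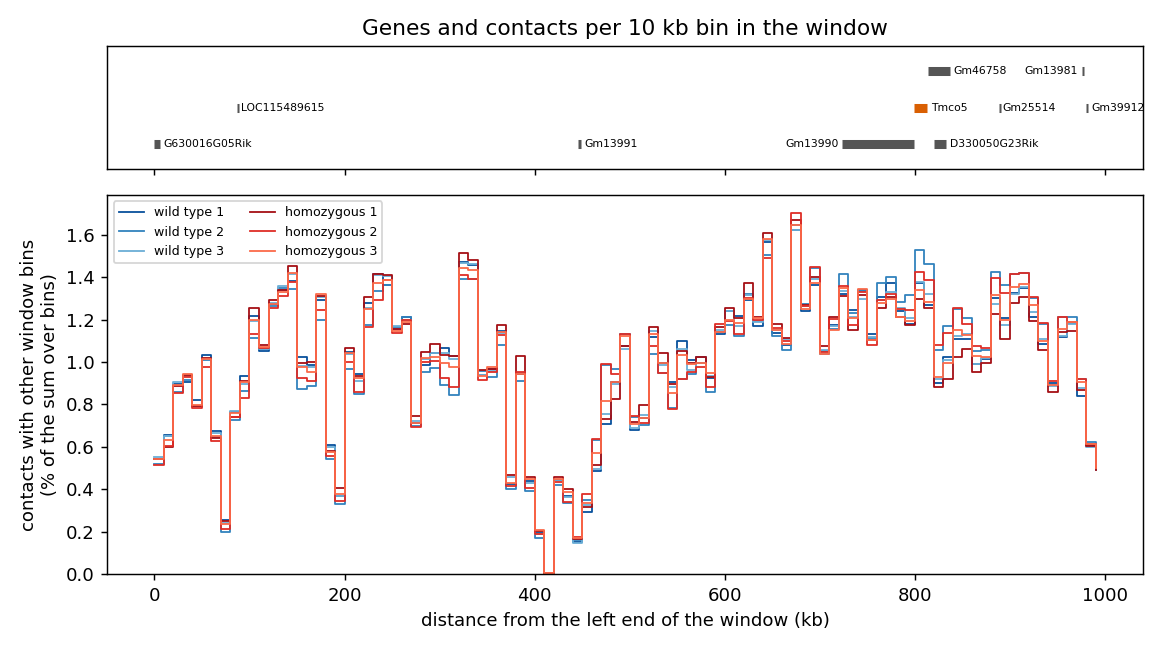
Genes of the window (top; Tmco5 in orange, other genes in grey) and the contacts of each 10 kb bin with the other bins of the window, as a percentage of the sum over bins, for the 6 libraries (bottom; blue, wild type; red, homozygous), against distance from the left end of the window in kb. The 6 lines run together, with the sparse stretch near 400 kb and the lowest bin at 0.00528 of the median.

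Contacts fell steeply with distance up to 200 kb and slowly beyond it. On log2 axes the mean contact per pair fell with a slope of -1.20 ± 0.030 (SD, n = 6 libraries) between 10 and 50 kb, -0.97 ± 0.020 between 50 and 100 kb and -0.94 ± 0.028 between 100 and 200 kb. It then flattened to -0.53 ± 0.0062 between 200 and 500 kb, and was -0.62 ± 0.088 between 500 and 900 kb. Every library showed the flattening: the 200 to 500 kb slopes lay between -0.54 and -0.52, while the 100 to 200 kb slopes lay between -0.99 and -0.92.

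The decay over 20 to 500 kb, fitted as 1 line, did not separate the genotypes. Slopes were -0.84, -0.86 and -0.85 for wild-type replicates 1 to 3 against -0.84, -0.86 and -0.84 for homozygous replicates, a difference of 0.0067 (exact permutation p 0.5). The share of window contacts spanning more than 200 kb was 22.9%, 22.2% and 22.4% for wild type against 23.6%, 22.6% and 22.9% for homozygotes. These overlap, with a difference of 0.554 percentage points (exact permutation p 0.3).

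Split into 5 distance classes, the shortest contacts were a smaller share in each homozygous library than in any wild-type one. Pairs 10 to 50 kb apart took 53.6%, 54.4% and 54.3% of window contacts for wild type against 52.0%, 53.2% and 53.4% for homozygotes, without overlap (exact permutation p 0.1, the smallest possible; adjusted over 5 classes 0.167). The 60 to 100 kb class was 11.8% ± 0.0537 in wild type and 12.2% ± 0.219 in homozygotes, and the 110 to 200 kb class 11.6% ± 0.0288 and 11.9% ± 0.133 (SD, n = 3; exact permutation p 0.1 and adjusted 0.167 for each). Classes beyond 200 kb overlapped. None of the 5 passed an adjusted threshold of 0.05, which this design cannot reach. The share of contacts within a single bin, which are not members, moved in the same direction: 25.8%, 25.4% and 24.6% of same-bin plus window contacts in wild type against 22.4%, 22.4% and 24.8% in homozygotes, where homozygous replicate 3 overlapped wild type. Its part in the distance classes was not tested. A shift at short range was not particular to the window. Between 10 and 50 kb the decay slope in the window was -1.221, -1.228 and -1.221 for wild type against -1.156, -1.177 and -1.220 for homozygotes. In the 880 kb directly left of the window it was -1.216, -1.222 and -1.219 against -1.158, -1.174 and -1.211, also without overlap. These slopes were not tested.

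**Figure D2:**
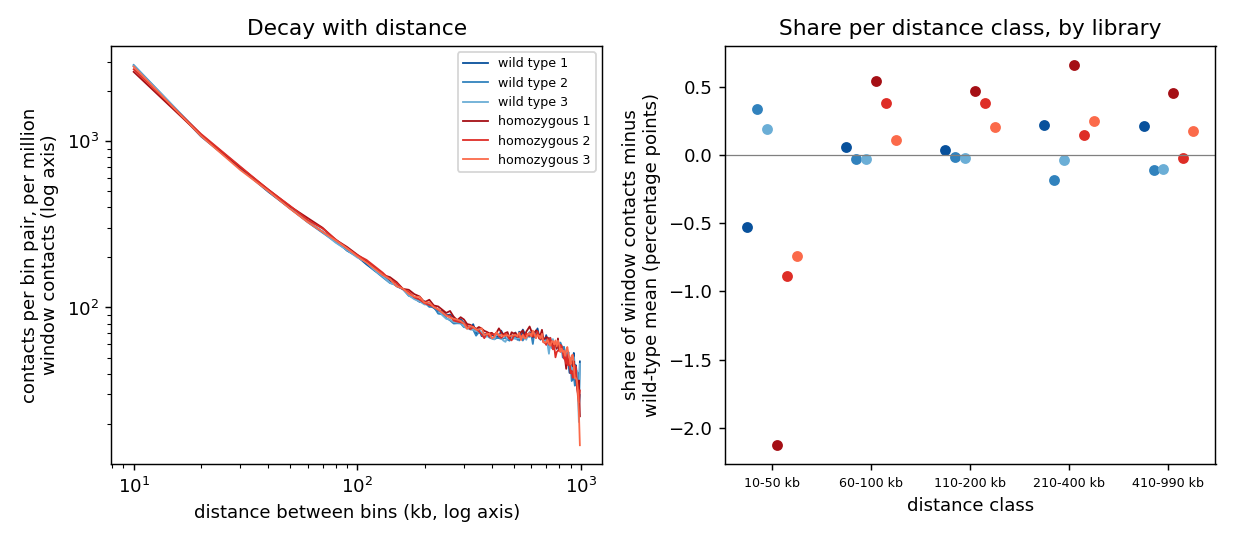
Left: mean contacts per bin pair, scaled to equal window totals, against the distance between bins in kb (both axes logarithmic), 1 line per library. Right: share of window contacts in each distance class minus the wild-type mean, in percentage points, 1 point per library (blue, wild type; red, homozygous); the 10 to 50 kb points of the homozygous libraries all lie below the wild-type ones, and homozygous replicate 1 is lowest at 52.0%.

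For insulation, contacts joining the 10 bins left of a border to the 10 bins right of it were averaged on a log2 scale, after balancing (iterative correction, which equalizes the totals of bins), relative to the mean over all borders scored. A low score marks a border that few contacts cross. In these scores 62 of the window's 81 borders lay within 0.1 of 0, and the range was -0.14 to 0.45. The high end, at 116550000, lies just right of the sparse stretch. The range depended on the treatment (means of 6 libraries). It was -0.75 to 0.74 when balanced over the whole captured region, -1.33 to 0.31 in raw counts, and -0.12 to 0.34 with windows of 200 kb.

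By the rule used (lowest within 5 borders on either side, at least 0.2 below the highest scores within 20 borders on both sides) there was 1 local minimum, at 116740000, between the sparse stretch and Tmco5. Its score was -0.09 and its depth 0.25, and it was found at the same border in all 6 libraries, with scores of -0.09, -0.11 and -0.09 for wild type against -0.07, -0.08 and -0.08 for homozygotes. The mean score over the 3 borders centred on it was -0.05 ± 0.0073 in wild type and -0.04 ± 0.0080 in homozygotes (SD, n = 3; exact permutation p 0.3). No gene of the annotation overlaps it. This minimum was not the lowest border of the window. In wild type the lowest was 116270000 (-0.17, -0.16 and -0.14), and in homozygotes 116900000 (-0.15, -0.16 and -0.12). In homozygotes 116270000 was close to that, at -0.13, -0.12 and -0.12. Neither border met the depth part of the rule in these scores.

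Which borders counted as minima changed with the treatment of the counts. Raw counts gave 3 minima, at 116270000, 116480000 (score -1.33, inside the sparse stretch) and 116900000, and not the one at 116740000. Balancing over the whole captured region gave a single minimum, at 116900000, with a score of -0.75 and a depth of 0.38, present in each of the 6 libraries. Windows of 50 kb gave 5 minima, which included 116740000 and 116900000, and windows of 200 kb gave 0. Dropping bins under 50% of the median gave 3, at 116270000, 116470000 and 116740000. The border at 116900000, which separates the bins of Tmco5 from those of D330050G23Rik, thus counted as a minimum in raw counts, over the whole region and with short windows. It did not in the other treatments. In raw counts it was missing from wild-type replicate 2, and with windows of 50 kb from wild-type replicate 2 and homozygous replicate 2. With those short windows its depth in the mean of 6 libraries was 0.203, just above the 0.2 required.

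The border score compares a border with the mean of its stretch and so depends on how dense the flanks are. A second measure, added after the matrices had been seen, compared contacts across a border with contacts inside its left and right flanks (150 kb each) at the same distances (20 to 100 kb). Over 71 borders its median was -0.02 (log2), and the lowest was at 116890000, inside Tmco5, at -0.32, close to 116590000, right of the sparse stretch, at -0.31. With flanks of 100 kb 116590000 was lowest (-0.37) and 116890000 3rd (-0.27), and with flanks of 180 kb 116900000 was lowest (-0.35) and 116890000 2nd (-0.33). With the 150 kb flanks, contacts across 116890000 were 19.7% fewer than contacts of the same length on either side.

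Each library showed this dip. The contrast at 116890000 was -0.32, -0.29 and -0.31 for wild-type replicates 1 to 3 against -0.30, -0.36 and -0.32 for homozygous replicates. The genotypes overlapped, with a difference of -0.02 (exact permutation p 0.4). The next border to the right, 116900000, stood at -0.31, with 19.2% fewer contacts across it. In the single libraries 116890000 ranked 1st to 3rd of the 71 borders; the lowest was at 116880000, 116890000 or 116900000 in 4 libraries and beside the sparse stretch, at 116590000 or 116610000, in wild-type replicates 2 and 3.

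The dip rested on many contacts: 5916 to 8411 per library across the border over 54 bin pairs, and 16422 to 25123 inside either flank over 81 pairs. Raw counts gave -0.33 at 116890000, where 11 borders were lower, 1 of them 116900000 and the others in and beside the sparse stretch. Balancing over the whole captured region deepened it to -0.44, with 116900000 lowest at -0.45. In the 880 kb of captured chromosome directly left of the window (115200001 to 116080000), the same measure in balanced counts reached no lower than -0.14 over 59 borders, at 115840000. In raw counts that stretch reached -0.27, at 115810000, close to the -0.33 at 116890000.

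**Figure D3:**
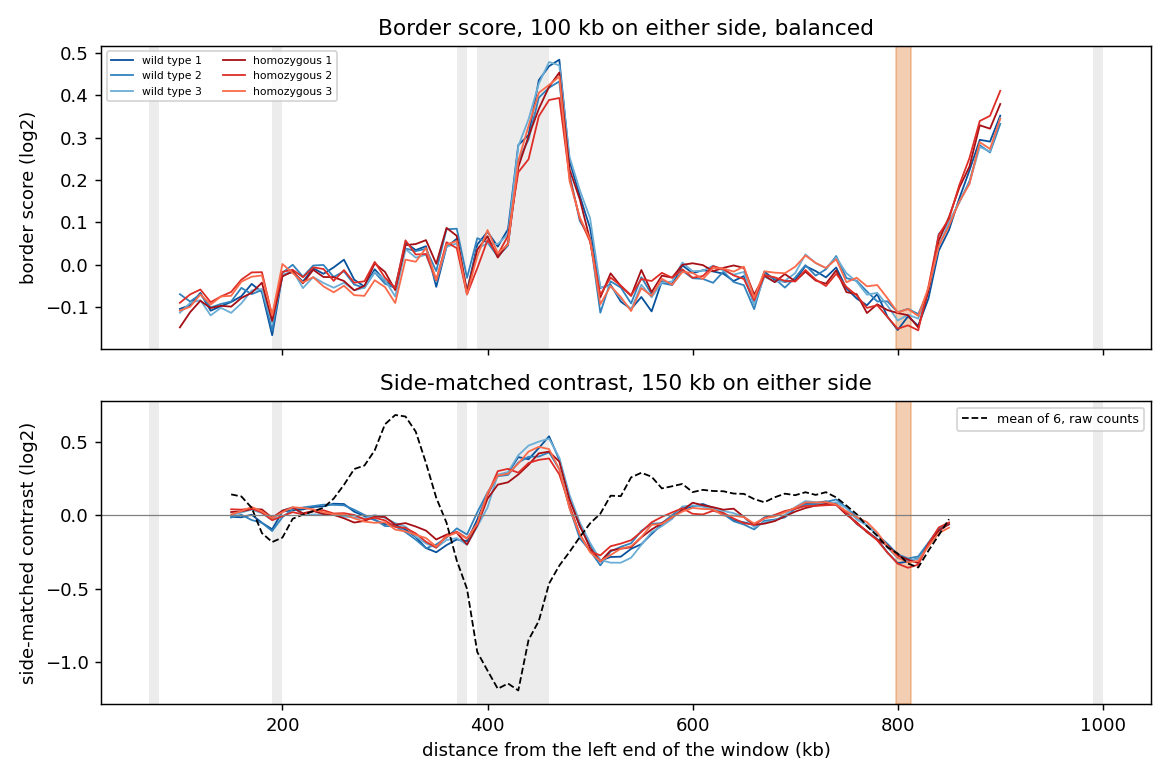
Top: balanced border score (log2) with 100 kb on either side. Bottom: side-matched contrast (log2) with 150 kb on either side; both against distance from the left end of the window in kb, 1 line per library (blue, wild type; red, homozygous; dashed black, mean of raw counts). The orange band is Tmco5 and grey bands are bins under 50% of the median coverage; all 6 lines of the contrast dip to between -0.29 and -0.36 at Tmco5.

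The preference of single bins for 1 side turned over within 50 kb at this place. For each bin the balanced contact with bins 20 to 150 kb to its left, divided by the value expected at that distance, was set against the same on its right (log2 left over right, added after the data were seen). The bin that holds the start of Tmco5, at 116870001, leaned left by 0.11 ± 0.037 (SD, n = 6 libraries). The next, at 116880001 and wholly inside the gene, stood at -0.06 ± 0.053, and the bin with the end of Tmco5, at 116890001, at -0.26 ± 0.060.

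The 2 bins of D330050G23Rik leaned right, at -0.64 ± 0.125 (116900001) and -0.62 ± 0.086 (116910001), the lowest of 67 bins in locally balanced counts. In raw counts bins right of the sparse stretch were lower, down to -0.91 at 116620001, and over the whole region bins left of or in it, down to -0.56 at 116460001. In every library the first of them was lower than each of the 3 Tmco5 bins: -0.50, -0.59 and -0.59 for wild type against -0.77, -0.83 and -0.60 for homozygotes. The levels shifted with the scaling, while the Tmco5 bins stayed above both D330050G23Rik bins in each. Raw counts gave 0.23, 0.05 and -0.18 for the Tmco5 bins and -0.51 and -0.46 for the D330050G23Rik bins, and balancing over the whole region gave 0.41, 0.23, 0.02, -0.39 and -0.39.

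Summed into 5 blocks of 200 kb, numbered from the left, the window was compared on either side of the start of the fifth, inside Tmco5 at 116880001. These blocks too were drawn after the data were seen. Block 5 met block 4 at 0.901 ± 0.014 of the expected contact, against 0.957 within block 4 and 1.28 within block 5 (SD over 6 libraries, balanced). It met block 3 at 0.807 and block 2 at 0.883, whereas block 4, which is closer to both, met them at 0.954 and 1.16. With block 1, farthest from it, block 5 met at 0.994, against 0.893 within block 1, while block 4 met block 1 at 1.17. The farthest window pairs all join blocks 1 and 5, so their expected value is their own mean. A level near 1 between these blocks is therefore largely fixed by the measure, and nothing is read from it.

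The level inside block 5 depended on the balancing: 1.28 balanced locally, 1.32 in raw counts and 0.787 balanced over the whole region. The shortfall between blocks 4 and 5 against both insides was present in all 3, with 1.11 against 1.29 and 1.32 in raw counts and 0.667 against 0.904 and 0.787 over the whole region. Blocks 2 and 4, far apart to the left of Tmco5, met more than expected in all 3 treatments (1.16, 1.45 and 1.18), as did blocks 1 and 4 (1.24 in raw counts and 1.26 over the whole region). By genotype, block 5 met block 4 at 0.906 in wild type and 0.897 in homozygotes, a smaller gap than the SD over libraries. Inside block 5 the homozygous libraries (1.29, 1.32 and 1.28) were all above the wild-type ones (1.27, 1.26 and 1.27), and blocks 3 and 4 met at 0.972, 0.974 and 0.948 in homozygotes against 0.945, 0.948 and 0.939, where the nearest libraries differed by less than the rounding. The genotypes overlapped in the other combinations of the 15, and no test was made over them.

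**Figure D4:**
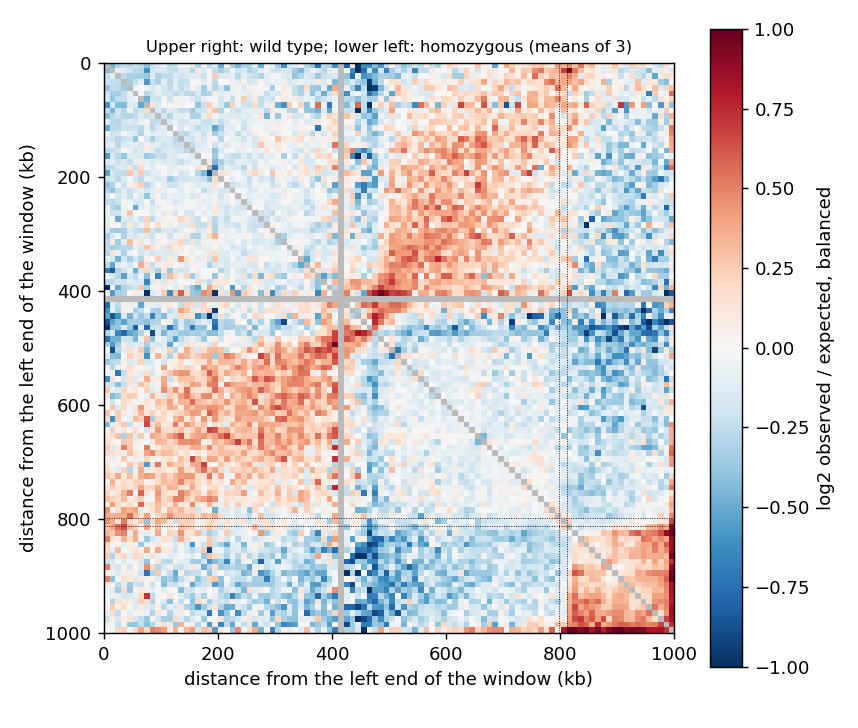
Balanced contacts divided by the mean at the same distance (log2 colour scale, red above and blue below expectation), for the wild-type mean of 3 (upper right) and the homozygous mean of 3 (lower left); both axes are distance from the left end of the window in kb, dotted lines are the ends of Tmco5, and grey is the dropped bin and the same-bin diagonal. To the right of Tmco5 a denser square sits in the corner, and its contacts with blocks 2 to 4 are mostly blue on both sides of the diagonal (0.807 to 0.901). Those with block 1 (0.994) are held near expectation largely by the measure, because the farthest window pairs all join these blocks. The last bin, at the end of the balanced stretch, has 0.480 of the median coverage.

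Tmco5 itself spans 3 bins, of which the middle one, wholly inside the gene, had the 7th highest coverage of the 100. The 3 bins took part in 6.59%, 7.41% and 6.74% of window contacts for wild type against 6.50%, 7.04% and 6.61% for homozygotes. Wild-type replicate 2 was the highest and the genotypes overlapped (difference -0.199 percentage points, exact permutation p 0.6). As a unit the gene leaned to neither side by much: log2 left over right was -0.12, -0.08 and -0.05 for wild type against -0.11, -0.10 and -0.03 for homozygotes (exact permutation p 1.0). The sign of this level was not stable, with 0.02 in raw counts and 0.22 and 0.21 in the 2 genotypes when balanced over the whole region.

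Most contacts of Tmco5 within the window were short. Its left 100 kb, which is Gm13990 and the desert beyond it, took 31.2% to 32.3% of them, and its right 100 kb, with Gm46758 and D330050G23Rik, 26.3% to 29.0%. Observed over expected contact was 0.918 on both near sides, 0.886 ± 0.045 at 210 to 300 kb on the left, and higher farther out. At 510 to 600 kb it was 1.02 ± 0.015, at 610 to 700 kb 1.13 ± 0.037, and at 710 to 790 kb 1.25 ± 0.031 (SD, n = 6 libraries). The expected value is the mean of window pairs at the same distance. At the farthest steps those pairs are few and all join the 2 ends of the window. Contact above expectation with the left end was not particular to Tmco5: blocks 1 and 4 as a whole met at 1.17. The 0.994 between blocks 1 and 5 is no comparison here, because the measure largely fixes it near 1.

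The farthest step, 116080001 to 116170000, is the left end of the window, where G630016G05Rik lies beside the end of Meis2. Tmco5 had 715, 810 and 881 contacts with it for wild type against 638, 823 and 863 for homozygotes. Observed over expected there was 1.26, 1.28 and 1.26 for wild type against 1.19, 1.26 and 1.23 for homozygotes, without overlap (exact permutation p 0.1; adjusted over 10 steps 0.667). It stayed above 1 in raw counts (1.31) and balanced over the whole region (1.22). The values near the gene moved with the treatment: those of the left and right 100 kb were 1.27 and 1.21 in raw counts against 0.700 and 0.579 over the whole region.

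**Figure D5:**
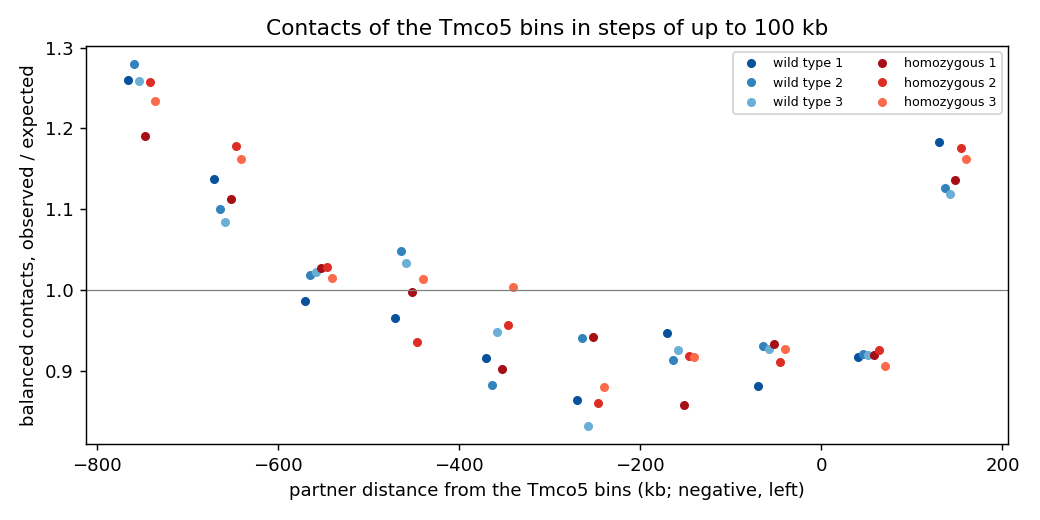
Balanced contacts of the 3 Tmco5 bins divided by the expected value, in steps of up to 100 kb, against the distance of the partner bins from the gene in kb (negative, left; positive, right), 1 point per library (blue, wild type; red, homozygous). Points of the farthest left step lie between 1.19 and 1.28, and those within 100 kb on either side between 0.881 and 0.933.

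The neighbours of Tmco5 differed from it in side. Gm13990, the lncRNA covering 8 bins on its left, leaned left by 0.13 ± 0.026. Gm46758, whose 3 bins share 1 with Tmco5, leaned right at -0.56 ± 0.073, and D330050G23Rik, whose 2 bins lie inside those of Gm46758, at -0.66 ± 0.096 (SD, n = 6 libraries). Raw counts gave 0.21, -0.39 and -0.47, the same directions.

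Single bin pairs far above the mean of window pairs at the same distance were few. Among 3418 pairs at least 50 kb apart with a mean count of at least 20, the 5th to 95th percentile of observed over expected was 0.787 to 1.36, and 36 pairs exceeded 1.5. The 5 highest separate ones, at 2.21, 2.21, 2.00, 1.94 and 1.83, all had an end in a poorly covered bin, 4 of them in the last bin of the window (117070001) and 1 in the sparse stretch (116480001). Without bins under 50% of the median, 12 of 3154 pairs exceeded 1.5 and 0 exceeded 2.

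Of those, the 5 highest lay between 1.58 and 1.62. One joined the last bin of Tmco5, 116890001, with 116090001 at the left end of the window, 800 kb away, at 1.61 ± 0.469. Its counts were 35, 52 and 44 for wild type against 15, 35 and 36 for homozygotes, and homozygous replicate 1 was below expectation at 0.881. Another joined the first D330050G23Rik bin, 116900001, with 117060001, 160 kb to the right, at 1.62 ± 0.267. The other three joined 116290001 with 116730001, 116420001 with 116660001 and 116460001 with 116580001. In raw counts none of these was among the 5 highest, which instead joined the best covered bins, such as 116400001 with 116720001 at 2.86.

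No bin pair and no border of the window passed the test between genotypes. The edgeR quasi-likelihood test over the 29850 bin pairs of the captured region with a mean count of at least 5 called 0 pairs at a Benjamini-Hochberg adjusted p of 0.05 (0% of all tested). Of the 4785 members tested, 0 were called and 227 had an unadjusted p under 0.05, against 1385 (4.64%) of all pairs. Of the 227, 88 were higher in homozygotes (background 2.11%) and 139 lower (background 2.53%). DESeq2 called 0, with 30 of the 4785 members under an unadjusted 0.05 against 200 of all 29850 pairs. Genotypes did not overlap, with homozygotes higher, in 263 members (5.50%, against 5.83% of all pairs tested) and, with homozygotes lower, in 212 (4.43%, against 4.35%). Both shares lie near the background.

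The pairs with the smallest p illustrate the size of the scatter. The pair 116170001 with 116360001 had 27, 27 and 38 contacts (wild type) against 40, 54 and 60 (homozygous) (log2 fold change 0.69 ± 0.197 SE; edgeR adjusted p 0.997). In the other direction, 116380001 with 116790001 had 51, 34 and 40 against 20, 29 and 28 (-0.75 ± 0.217 SE; edgeR adjusted p 0.997). The counts of both pairs separate the genotypes, and neither passed the test. The next pairs were 116250001 with 116780001 (0.68) and 116190001 with 116450001 (1.06), higher, and 116090001 with 116440001 (-0.84) and 116190001 with 116570001 (-0.74), lower. None has an end in Tmco5.

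Over the borders, limma called 0 of 169 at an adjusted p of 0.05, 0 of them among the 81 members, where 11 had an unadjusted p under 0.05 (5 higher and 6 lower in homozygotes) against 21 (12.4%) of all. Genotypes did not overlap at 7 members (8.64%) against 15.4% of all borders. The member borders with the smallest p were 116260000 and 116270000, higher in homozygotes by 0.03 each, and 116510000 and 116530000, both in the sparse stretch and lower by 0.04 each (limma adjusted p 0.349). At 116260000 scores were -0.07, -0.06 and -0.06 for wild type against -0.04, -0.02 and -0.03 for homozygotes. The largest difference at any member border was 0.044, at 116530000, where the SD between libraries was 0.022 in wild type and 0.028 in homozygotes. Over the member borders the median SD was 0.014 in wild type and 0.018 in homozygotes.

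The window differed a little from the 880 kb on its left in the same libraries, which holds Meis2. Insulation varied more in the window: the SD of border scores was 0.133 ± 0.0056 against 0.102 ± 0.0039 on the left (SD, n = 6 libraries), higher in 6 of 6 libraries (exact sign-flip permutation p 0.03125, the smallest that 6 libraries allow). The window's spread includes the rise at the sparse stretch. Contacts over 200 kb, weighting all distances equally, were 36.2% ± 0.577 against 35.2% ± 0.688 (exact sign-flip p 0.03125), but balanced counts gave a difference of 0.101 percentage points (exact sign-flip p 0.469). The decay slope was -0.85 against -0.84 (exact sign-flip p 0.03125), and its sign turned over 50 to 800 kb, where the window was the flatter by 0.08 (exact sign-flip p 0.03125).

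The 6 libraries gave similar maps of the window where counts were high. Over the 3798 pairs with a mean count of at least 20, Pearson's r of log2 observed over expected ran from 0.818 to 0.857 across the 15 pairs of libraries; these points share bins and coverage, so the values describe likeness only. It was 0.944 to 0.968 up to 100 kb and 0.585 to 0.644 beyond 400 kb, where counts are low. Border scores correlated at 0.966 to 0.991 over 81 borders. Once balancing had removed the coverage of bins and poor bins were left out, r over single pairs was 0.436 to 0.519. Same-genotype pairs of libraries (0.825 to 0.852) and pairs of different genotype and number (0.818 to 0.845) spanned nearly the same range. The 3 pairs of different genotype and the same number had 0.827 to 0.857, with a median of 0.856, and a chi-square per degree of freedom of 1.07 to 1.21. By the same measure, libraries of the same genotype had 1.11 to 1.52, and all 15 pairs of libraries 1.07 to 1.71. A value of 1 would be sampling noise alone, so every pair differed by more than that.

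Of the 10 genes in the window, 1 appears in the authors' deposited table of genes away from the deletion, a regression of testis expression on genotype over the 9 RNA-seq libraries. It is D330050G23Rik, with a slope of 0.155, a t statistic of 5.11, a p-value of 0.00138 and a false discovery rate of 0.586 in the authors' deposited table. It ranked 84th of 566 listed genes by p and 504th by the size of the slope, which is given without a unit. That table stops at a p-value of 0.00998, and Tmco5 is not listed in it.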

How the data were processed

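Capture Hi-C contacts were taken from 6 matrices of whole-number counts per pair of 10 kb bins, deposited by the authors without normalization. Reads were mapped to mm10, per the submitters' processing notes; how contacts were filtered and binned is not given in the sources used here. The p-value, and the t statistic and slope (scores with no stated unit), of D330050G23Rik are from the authors' deposited regression table. Each matrix was assigned to the library whose genotype and replicate its name gives. As captured region served the longest run of bins reaching 20% of the 99th percentile of coverage, gaps under 100 kb bridged. Balancing used 200 rounds over the window and the 88 bins on its left, dropping bins under 10% of the median. Bin pairs were tested with edgeR 4.0.16 (quasi-likelihood, TMM; alternative DESeq2 1.42.0) and borders with limma 3.58.1, with Benjamini-Hochberg adjustment over all features tested; single values with exact permutation or sign-flip tests. On simulated counts for these 29850 pairs, edgeR recovered 59% of 2-fold and 14% of 1.5-fold changes, and limma 100% of shifts of 0.1 and 70% of shifts of 0.05 in 169 borders. These rates are not those of the window alone. In the whole captured region 12655 of 29850 pairs had a mean count of at least 20, against 3798 of 4785 members. The simulation used a single dispersion, and drew border noise independently although neighbouring borders share contacts. Named pairs were the 3 members with the smallest p in each direction, named borders the local minima and 2 per direction, and focal pairs the 5 highest. The window, lists and measures were chosen with earlier results of these data known.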

Additional observations from a re-analysis of the deposited data

How the results depend on the processing

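Over 17 results and 165 alternatives, 135 kept their direction and their side of the threshold. For genotype differences in single values the exact p cannot fall below 0.1, or below 0.25 with the replicate block. Their side of the threshold was therefore fixed, and only their direction and size could change. The calls of bin pairs were 0 under all alternatives except the replicate block. It called 1 of the 4785 members, against 2 of all 29850 pairs (0.0067%). The member was the adjacent bins 116840001 and 116850001 (log2 -0.23, edgeR adjusted p 0.00793). In that fit 88 of 97 adjacent pairs of the window were lower in homozygotes. Adjacent pairs outside the window were not counted. The block with a scale per distance called 0. Same-numbered deviations correlated at 0.073, 0.122 and 0.035 over pair counts, where each library correlated best with its own number, and at 0.154, 0.190 and 0.384 over border scores, where wild-type replicate 1 correlated better with homozygous replicate 2 (0.221). Libraries of different genotype and number correlated at -0.083 to 0.010 over pair counts and at -0.463 to 0.221 over border scores. Only the border scores passed 0.1 in every same-numbered pair, and the labels do not say what equal numbers share. The main fits were therefore made without a block, and a shared origin was not tested. The block changed no other call among the members. With it, 340 of the 4785 members tested had an unadjusted edgeR p under 0.05 (117 higher and 223 lower in homozygotes), against 1683 of all 29850 pairs. Genotype differences that turned sign were the captured share with all contacts as the denominator (-0.036), the slope over 50 to 800 kb (-0.011), and the Tmco5 side ratio balanced over the whole region (-0.010) or without bins under 50% (-0.0013). Against the left stretch, the slope difference became 0.0808 over 50 to 800 kb and 0.0025 balanced, and the long-range difference fell to 0.292 with a 100 kb limit and 0.101 balanced; the cause was not tested.

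Leaving out each library in turn gave the following ranges of the genotype difference. They were 0.119 to 0.386 for the captured share, 0.273 to 0.772 for the share over 200 kb, 0.0027 to 0.014 for the slope, and -1.52 to -0.814, 0.245 to 0.462, 0.296 to 0.427, 0.1996 to 0.463 and 0.074 to 0.314 for the distance classes from short to long. At 116740000 the range was 0.0075 to 0.016, for the contrast at 116890000 -0.033 to -0.0050, for the Tmco5 share -0.361 to 0.046 (above 0 without wild-type replicate 2), and for the Tmco5 side ratio -0.025 to 0.016. Against the left stretch it was -0.010 to -0.0059 (slope), 0.900 to 1.13 (long-range share) and 0.029 to 0.033 (insulation spread), each with an exact p of 0.0625, the smallest that 5 libraries allow. Bin pairs and borders called stayed at 0. Counts of 29 to 36 per pair limit single pairs to large changes.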
